A study of Eonycteris spelaea and Mus musculus with 51 samples.

Results

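The cytosolic chaperonin CCT, also called TRiC, is described here through the 8 genes that encode its subunits: Tcp1, Cct2, Cct3, Cct4, Cct5, Cct6a, Cct7 and Cct8. The members were taken by name, as 8 of the 40840 rows of the mouse table and, by fixed identifiers, 8 of the 30017 rows of the bat table, where the same genes are written TCP1, CCT2, CCT3, CCT4, CCT5, CCT6A, CCT7 and CCT8. All 8 passed the filter on low counts in every fit of both species. RNA was sequenced from lung, muscle and blood of 2 species, the mouse (Mus musculus) and Eonycteris spelaea, the cave nectar bat. Heat animals were sampled directly after a heat shock of 1 h given to the living animal, recovery animals after the same heat shock and 4 h without it, and control animals at baseline. The 18 groups make 51 libraries, with 2 in each of the 3 groups of mouse blood and 3 in each of the others. The labels used here give no strain, age, sex or heat shock temperature, and they do not say whether libraries of a group or of different tissues came from separate animals. The p-values therefore measure the spread between these libraries. No group without heat was sampled at the later times, so an effect of heat cannot be told apart from one of handling or elapsed time. The heat and recovery groups of a tissue were both compared with the same control libraries.

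CCT is a barrel of a pair of stacked rings, and each ring holds one copy of every subunit. Unfolded proteins enter the barrel, ATP binding and hydrolysis close its lid, and the protein folds inside. Actins and tubulins depend on it, as do many proteins built from WD repeats. The subunits descend from a common ancestor but have diverged, and in yeast they differ in how tightly they bind ATP. Prefoldin hands unfolded actin and tubulin to the barrel, and phosducin-like proteins act on it as cofactors.

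The 8 mouse genes lie on 8 chromosomes: Tcp1 on 17, Cct2 on 10, Cct3 on 3, Cct4 on 11, Cct5 on 15, Cct6a on 5, Cct7 on 6 and Cct8 on 16. Their transcripts, read from the GENCODE M21 set, share a stretch that codes for the conserved nucleotide-binding loop of chaperonins. It is shown because it is the part of the subunits in which their kinship is easiest to see. The longest pattern held by all 8 transcripts, when the third base of each triplet was left free, was GGNGANGGNACNA on the transcript's own strand, and it is given in capitals with 15 bases on either side.
Tcp1: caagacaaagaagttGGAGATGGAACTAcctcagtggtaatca
Cct2: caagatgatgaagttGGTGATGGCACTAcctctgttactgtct
Cct3: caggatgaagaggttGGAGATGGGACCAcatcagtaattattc
Cct4: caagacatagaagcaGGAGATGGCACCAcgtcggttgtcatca
Cct5: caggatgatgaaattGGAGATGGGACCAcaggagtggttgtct
Cct6a: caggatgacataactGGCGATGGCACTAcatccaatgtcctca
Cct7: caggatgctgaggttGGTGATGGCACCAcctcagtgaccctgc
Cct8: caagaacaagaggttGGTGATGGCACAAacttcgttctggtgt
The pattern was chosen because all 8 hold it. Each held it once, and 340 of 21877 protein-coding genes (1.55%) held it at all. Of the 43 bases shown, 15 were identical in all 8 subunits. The genes were otherwise far apart. No run of 50 bases was shared between any 2 subunits, and the longest exact run that any pair shared was 17 bases, so no read of 50 bases could match 2 subunits exactly.

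Overlap with other genes was a limit for some subunits. In the same annotation 22.2% of the 50-base words of Tcp1 also occurred in other genes, mainly in Acat3 on the opposite strand. The share was 16.8% for Cct6a, which overlaps Psph on the opposite strand, 8.28% for Cct7, which overlaps Pradc1, and 6.10% for Cct8, which overlaps Usp16. It was 2.13% for Cct3 and 0.657% for Cct4, both through pseudogenes or predicted genes, and 0 for Cct2 and Cct5. The library kit keeps the strand, but whether the counting used it is not stated in those sources. Values of Tcp1 and Cct6a are therefore less certain than those of Cct2 and Cct5. The GC content of the transcripts ran from 43.3% in Cct8 to 54.0% in Cct7, with 50.2% in Cct5 and 49.3% in Cct3 next below Cct7.

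Bat libraries held 9.29 to 33.3 M counts and mouse libraries 17.1 to 54.5 M. The 8 subunits together took 0.0193 to 0.130% of them in the bat and 0.0146 to 0.0974% in the mouse. Summed markers fitted the mouse tissues: 6 lung epithelium genes reached 15092 to 17492 CPM in lung and at most 4.75 CPM in blood, where 2 of them were at 0. The 8 muscle fibre genes reached 171325 to 323621 CPM in muscle. The 6 erythroid genes reached 368639 to 913722 CPM in blood. Bat rows could not be checked in this way, since the reference tables used here do not name their identifiers. A few libraries stood apart from their own group. The mean Spearman correlation with the rest of the group was 0.838 for bat blood recovery 2, 0.912 for bat lung control 3, which was also the shallowest library, and 0.937 for mouse muscle recovery 1. Medians of comparisons that hold one of these are also given without it where it moved them. In whole tissue, fewer cells of a type and less RNA per cell cannot be told apart.

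The baseline levels show where the subunit transcripts were most abundant. In control animals of both species they were higher in muscle than in lung after TMM scaling. As a share of all counts the 8 took 0.0596 to 0.0630% in mouse control lung and 0.0593 to 0.0634% in mouse control muscle. In the bat they took 0.0945 to 0.0991% in control lung and 0.0783 to 0.0960% in control muscle. The difference between these tissues therefore depends on the scaling. Baseline values in both species are CPM with TMM scaling over all tissues of a species. In the mouse the 8 subunits summed to 383 ± 28.7 CPM in blood (SD, n = 2), 321 ± 11.8 CPM in lung and 656 ± 91.4 CPM in muscle (SD, n = 3 each). Between lung and muscle all 8 were lower in lung (background 28.0% of all genes called lower), with a median log2 difference of -0.92, against 0.08 over all genes tested. Tcp1, whose gene gave the complex its older name, differed most, with 44.1 ± 1.29 CPM in lung and 111 ± 15.6 CPM in muscle (SD, n = 3 each) and a log2 difference of -1.33 (SE 0.13, edgeR adjusted p = 9.29e-08). Cct3, the gamma subunit, differed least, with 31.7 ± 3.19 CPM in lung and 52.9 ± 4.14 CPM in muscle (SD, n = 3 each) and a log2 difference of -0.74 (SE 0.16, edgeR adjusted p = 0.00077).

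Blood lay between these tissues in the mouse after TMM scaling. As a share of all counts the 8 took 0.0206 and 0.0286% in the control blood libraries. These shares were below those of every control library of lung and muscle. The place of blood in this order therefore depends on the scaling too. Against muscle 7 subunits were lower in blood (background 38.6% called lower), all but Cct7. Against lung 3 subunits were higher in blood (background 26.6% called higher): Cct2, Cct8 and Cct4, by 0.50, 0.41 and 0.36 on the log2 scale. The calls were not equally stable: over 24 fits that each left out a library, Cct2 was called in 22, Cct8 in 11 and Cct4 in 1. None was called without blood control 1 or blood control 3, and DESeq2 called Cct2 and Cct8. Tcp1 and Cct6a, the zeta subunit, differed between blood and lung by -0.04 (SE 0.15) and -0.11 (SE 0.18) and were not called. Levels of different subunits were set side by side per kilobase of exon. Cct5 had the highest mean and Cct3 the lowest in all 3 tissues. In control muscle Cct5 had 45.8 ± 8.28 CPM per kb and Cct3 23.2 ± 1.82 CPM per kb (SD, n = 3 each). Between them, Cct6a, Tcp1 and Cct2 had 39.7 ± 7.58, 38.7 ± 5.45 and 37.7 ± 6.78 CPM per kb there (SD, n = 3 each) and did not differ beyond their spread. In control lung Tcp1 and Cct6a stood lower in the order, at 15.4 ± 0.453 and 16.4 ± 0.747 CPM per kb, while Cct2 had 20.2 ± 0.282 CPM per kb (SD, n = 3 each).

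In the bat the 8 subunits summed to 504 ± 80.3 CPM in control blood, 592 ± 30.5 CPM in control lung and 1364 ± 119 CPM in control muscle (SD, n = 3 each). Between lung and muscle 7 were lower in lung (background 20.1% called lower). The exception was CCT2, at 107 ± 12.7 CPM in lung and 148 ± 5.50 CPM in muscle (SD, n = 3 each), with a log2 difference of -0.47 (SE 0.27, edgeR adjusted p = 0.134). CCT7, the eta subunit, differed most, by -1.76 (SE 0.29, edgeR adjusted p = 2.54e-05). Against muscle all 8 were lower in blood (background 33.9% called lower), with log2 differences from -0.65 for CCT2 to -2.05 for CCT7. Between blood and lung none was called in either direction (background 57.6%), none had an unadjusted p under 0.05, and DESeq2 called none. Without bat lung control 3, 1 was called.

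**Figure D1:**
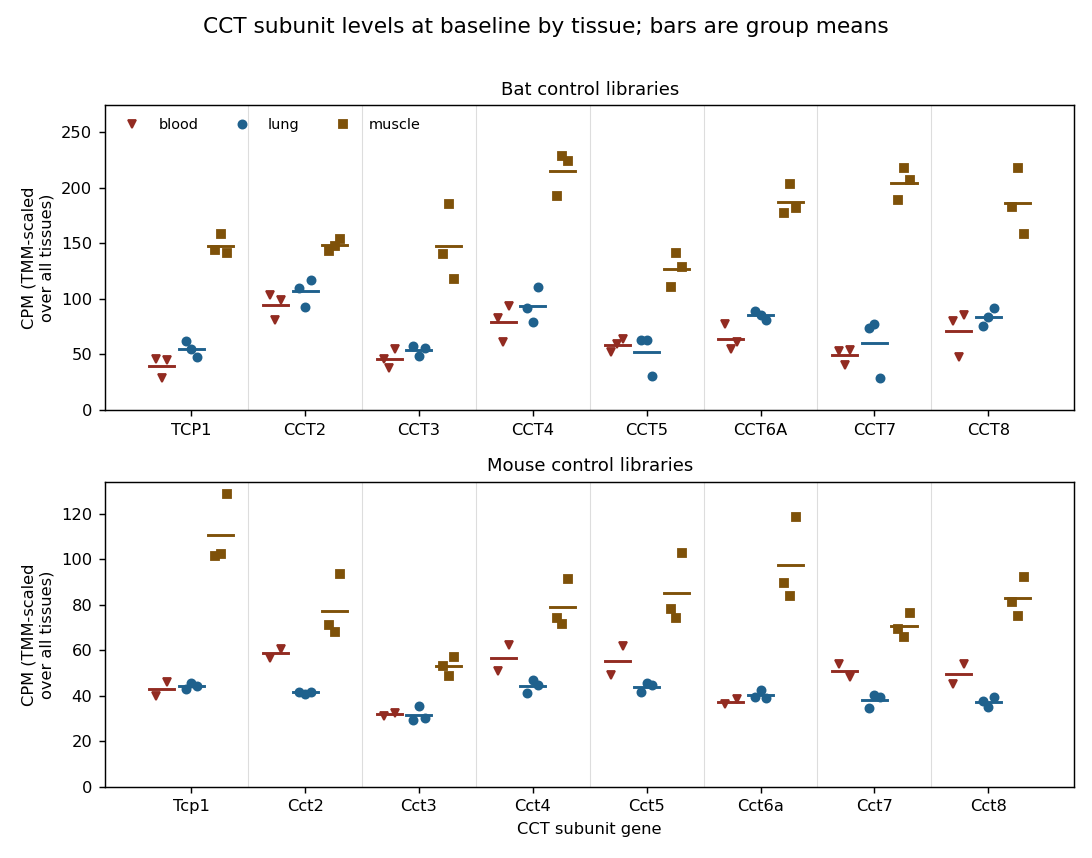
CPM of each CCT subunit (y axis, TMM-scaled over all tissues of a species) in the control libraries of blood, lung and muscle (colours), bat above and mouse below; points are libraries and bars are group means. Muscle libraries lie highest for most subunits in both species, and mouse blood lies above mouse lung for Cct2.

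In mouse lung, transcripts of every CCT subunit were higher at the end of the heat shock. From here on CPM values are TMM-scaled within a tissue. All 8 subunits rose (background 3.14% of genes called higher), by 1.29-fold for Tcp1 to 2.20-fold for Cct7, with a median log2 change of 0.57, against -0.01 over all genes tested. For all 8, every heat library lay above every control library, which held for 12.7% of all genes. Summed over the 8, the levels were 950, 776 and 1067 CPM in the heat libraries, against 581, 624 and 601 CPM in the control libraries.

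Cct7, whose product has been found to bind membrane receptors as well as to sit in the barrel, changed most. It had 156, 113 and 201 CPM in the heat libraries, against 64.9, 75.8 and 72.9 CPM in the control libraries. The heat libraries all lay higher, with heat 3 the highest and heat 2 the lowest. The log2 change was 1.14 (SE 0.18, 95% interval 0.73 to 1.54, edgeR adjusted p = 0.012).

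Cct3 had 96.2, 76.8 and 131 CPM in the heat libraries, against 55.5, 66.6 and 56.3 CPM in the control libraries. Its lowest heat library was close to its highest control library, and the log2 change was 0.77 (SE 0.17, edgeR adjusted p = 0.0301). Cct4, the delta subunit, which in humans can form rings of its own, showed a clearer gap. It had 145, 114 and 146 CPM in the heat libraries, against 77.3, 88.0 and 83.4 CPM in the control libraries. Its log2 change of 0.70 (SE 0.10) had the smallest adjusted p of the 8 in edgeR, 0.00473.

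Cct6a had 120, 96.0 and 128 CPM in the heat libraries, against 74.4, 79.9 and 72.8 CPM in the control libraries. Cct5, the epsilon subunit, which can also form rings of its own in humans, had 122, 100 and 137 CPM in the heat libraries, against 78.5, 85.7 and 83.2 CPM in the control libraries. These were intermediate changes, with log2 values of 0.60 (SE 0.11) for Cct6a and 0.54 (SE 0.11) for Cct5. Adjusted p-values in edgeR were 0.011 for Cct6a and 0.0172 for Cct5.

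The beta subunit Cct2, the theta subunit Cct8 and the alpha subunit Tcp1 changed least. Cct2, whose product has also been described as a receptor that brings protein aggregates to autophagy, had 106, 94.7 and 112 CPM in the heat libraries, against 78.7, 76.7 and 77.7 CPM in the control libraries. Cct8, whose higher level raises assembly of the complex in worms and human stem cells, had 94.5, 84.9 and 98.6 CPM in the heat libraries, against 70.9, 65.9 and 73.0 CPM in the control libraries. Tcp1 had 110, 97.3 and 114 CPM in the heat libraries, against 80.7, 85.5 and 82.2 CPM in the control libraries. In all 3 genes the heat libraries stood apart from a tight control group. Their log2 changes were 0.42 for Cct2, 0.40 for Cct8 and 0.37 for Tcp1 (SE 0.09, 0.08 and 0.08), with edgeR adjusted p-values of 0.0242, 0.021 and 0.0237.

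The order of the heat libraries was the same in all 8 subunits: heat 3 highest, heat 1 next, heat 2 lowest. It was also that of the inducible HSP70 gene Hspa1b, which had 1879, 281 and 7527 CPM in heat libraries 1, 2 and 3, and of the constitutive HSP70 gene Hspa8, which had 2396, 1515 and 3267 CPM. Neutrophil markers summed over 6 genes to 58.2 to 166 CPM in the heat libraries, against 42.8 to 63.7 CPM in the control libraries. B cell markers summed over 5 genes to 72.9 to 78.8 CPM in the heat libraries, against 130 to 141 CPM in the control libraries. Their median log2 change was -0.82, and all 5 values were negative. T and NK cell markers summed over 6 genes to 20.8 to 22.8 CPM in the heat libraries, against 30.8 to 32.8 CPM in the control libraries. Their median log2 change was -0.64, and all 6 values were negative. No marker of these lists was at 0 throughout a group, and their part in the CCT result was not tested. Single libraries decided how many of the 8 were called: 1 when either control 1 or control 3 was left out, 4 when control 2 was, 3 when heat 1 was and 5 when recovery 2 was. Cct4 was called in each of the 9 fits that left out a library, Cct6a and Cct7 in 7 of them, and all 8 subunits stayed positive in each.

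After 4 h of recovery the lung subunits were back near the control level. Against control none passed edgeR's test in either direction (background 0.0309%), 1 had an unadjusted p under 0.05 and DESeq2 called none. The median log2 change was -0.14, with values from -0.24 for Cct4 to 0.12 for Cct7, whose 95% interval ran from -0.29 to 0.52. Against heat all 8 fell (background 5.84% of genes called lower), with a median of -0.74, and all 8 had every recovery library below every heat library, which held for 16.1% of all genes. Summed over the 8, they had 515, 570 and 605 CPM in the recovery libraries. Neutrophil markers moved with this difference: they summed to 29.5 to 50.1 CPM in the recovery libraries, against 58.2 to 166 CPM in the heat libraries, and 3 of the 6 fell. Their part in the CCT result was not tested.

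Cct7 had 67.5, 80.0 and 84.3 CPM in the recovery libraries, and its log2 difference from heat was -1.02 (SE 0.18, edgeR adjusted p = 0.00999). Cct4 had 67.8, 70.7 and 72.8 CPM there, below each of its control libraries, with a log2 difference from heat of -0.94 (SE 0.10, edgeR adjusted p = 0.00049). Cct3 differed by -0.92 and Tcp1, the least changed, by -0.41. The count of 8 was 5 without recovery 1 and 6 without recovery 2.

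**Figure D2:**
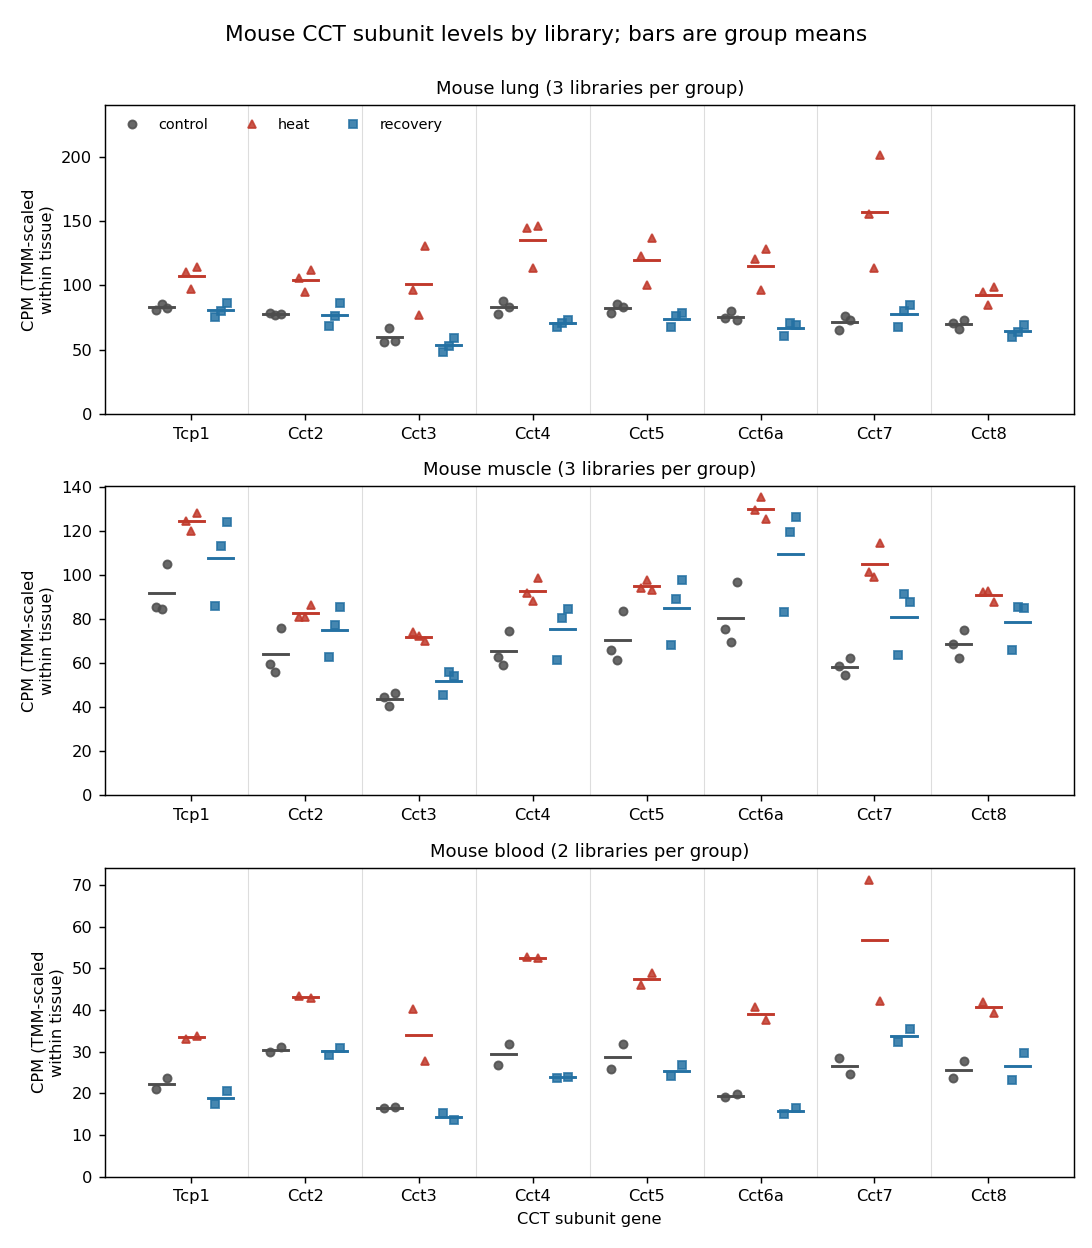
CPM of each CCT subunit (y axis, TMM-scaled within tissue) in every mouse library of lung, muscle and blood (panels) at control, heat and recovery (colours); bars are group means. In each panel the heat libraries lie above the control libraries for all 8 subunits, and the gap is widest for Cct7 in lung.

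Because the subunits are used in equal numbers in the ring, the share of each among the counts of all 8 was also followed. These shares are of counts and are not corrected for gene length, so they are compared only between groups. In mouse lung Cct7 took 16.6 ± 2.15% at heat and 11.8 ± 0.561% in control (SD, n = 3 each). Tcp1 took 11.6 ± 0.927% at heat and 13.7 ± 0.120% in control, and Cct2 took 11.3 ± 0.869% at heat and 12.9 ± 0.626% in control (SD, n = 3 each). Cct5 stood at 12.9 ± 0.0557% at heat and 13.7 ± 0.158% in control (SD, n = 3 each). The Cct7 share was thus higher at heat and the Tcp1 and Cct2 shares lower, with no test made of these shares. In mouse muscle the Cct7 share was 13.2 ± 0.893% at heat and 10.8 ± 0.671% in control (SD, n = 3 each). In mouse blood it was 16.1 ± 4.48% at heat and 13.4 ± 2.10% in control (SD, n = 2 each), a difference within the spread.

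**Figure D3:**
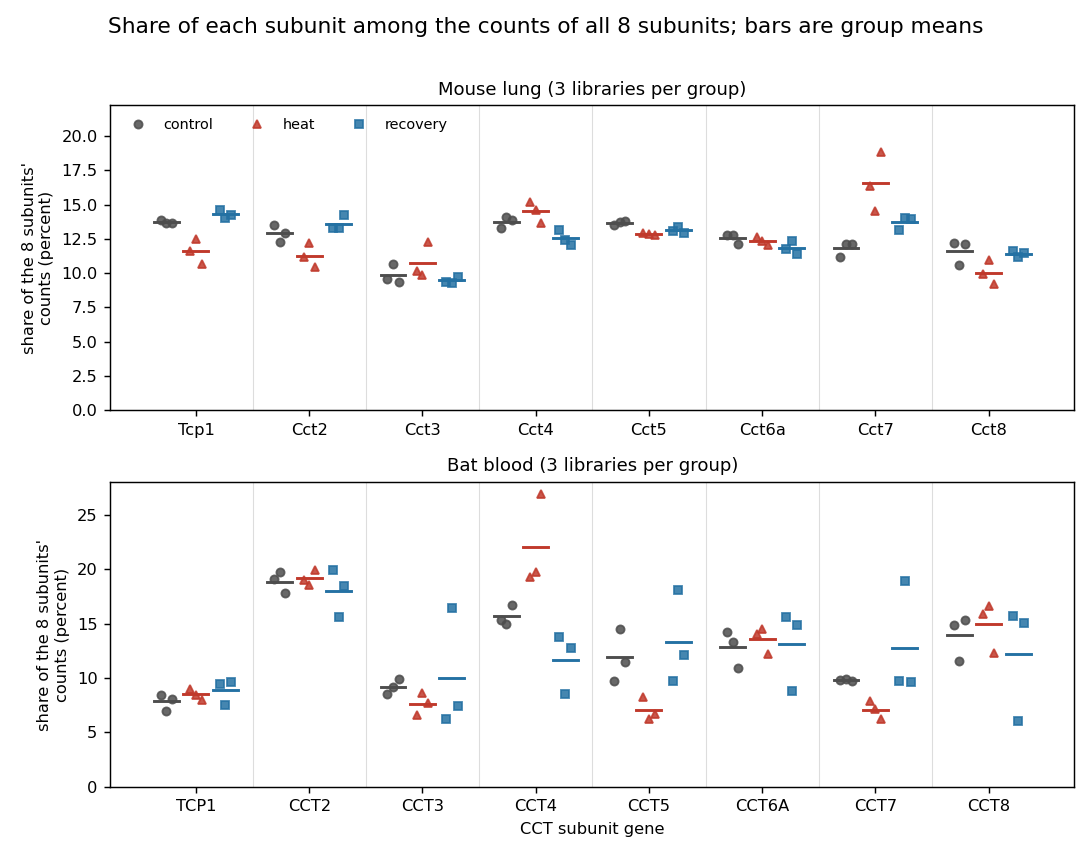
Share of each subunit among the counts of all 8 CCT subunits (y axis, percent) in every library of mouse lung (top) and bat blood (bottom) at control, heat and recovery (colours); bars are group means. In mouse lung the Cct7 shares at heat lie above those of control and recovery, and in bat blood the CCT4 shares do.

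Mouse muscle showed the same direction at heat with fewer calls. All 8 subunits had every heat library above every control library, which held for 16.1% of all genes, and the median log2 change was 0.47, against -0.05 over all genes tested. Only Cct3 passed edgeR's test (background 0.293% of genes called higher). Their sum was 789, 787 and 804 CPM in the heat libraries, against 521, 488 and 620 CPM in the control libraries. As a share of all counts, before scaling, they took 0.0652, 0.0701 and 0.0728% in the heat libraries. The control libraries had 0.0634, 0.0606 and 0.0593%. The size of the change in muscle therefore depends on the TMM scaling.

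Cct3 had 74.0, 72.3 and 70.0 CPM in the heat libraries, against 44.6, 40.3 and 46.5 CPM in the control libraries. Its groups were tight and far apart, and the log2 change was 0.72 (SE 0.11, edgeR adjusted p = 0.0423). Cct7 had 101, 99.2 and 115 CPM in the heat libraries, against 58.7, 54.4 and 62.3 CPM in the control libraries. Its larger log2 value of 0.85 (SE 0.15) came with an edgeR adjusted p of 0.0528. Cct6a had 130, 136 and 125 CPM in the heat libraries, against 75.5, 69.5 and 96.8 CPM in the control libraries, a log2 value of 0.69 (SE 0.18, edgeR adjusted p = 0.0885).

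In the other subunits control 3 was the highest control library, and in Cct2 its 76.2 CPM came close to the 81.0 CPM of the lowest heat library. DESeq2 called 6 subunits, all but Cct2 and Cct5, and edgeR called 6 without muscle recovery 1, 2 without control 3 and none when another library was left out. B cell markers summed to 1.42 to 11.04 CPM in the heat libraries, against 31.2 to 114 CPM in the control libraries. T and NK cell markers summed to 0.0658 to 1.63 CPM in the heat libraries, against 7.25 to 31.3 CPM in the control libraries, and the 5 of them that were tested had a median log2 value of -4.42. No gene of these 2 lists passed edgeR's test. The 4 adipocyte markers summed to 40.6 to 189 CPM in the heat libraries, against 197 to 809 CPM in the control libraries. Muscle fibre markers summed to 294719 to 323621 CPM in the heat libraries, against 171325 to 290293 CPM in the control libraries. No marker of these lists was at 0 throughout a group, and their part in the CCT values was not tested.

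At recovery the muscle subunits lay between heat and control. Against control none passed edgeR's test (background 0.0676%), 2 had an unadjusted p under 0.05 and DESeq2 called none. The median log2 change was 0.24, and all 8 values were positive, with 0.47 (SE 0.15) for Cct7 and 0.44 (SE 0.18) for Cct6a as the largest. Against heat none passed (background 0.468%), 2 had an unadjusted p under 0.05, DESeq2 called 1, and the median was -0.23. Without recovery 1 these medians were 0.36 over control and -0.09 over heat, and without control 3 the median over control was 0.36. Without recovery 3 the median over control was 0.15. Recovery 1 was the lowest recovery library for every subunit. Its sum was 537 CPM, against 713 and 745 CPM in recovery 2 and 3. Before scaling, the subunits took 0.0654% of all counts in recovery 1, against 0.0673 and 0.0671% in recovery 2 and 3. Cct7 showed this spread, with 63.6, 91.4 and 87.8 CPM in the recovery libraries. The Hspa1b gene had 652 CPM in recovery 1, against 2484 and 1971 CPM in recovery 2 and 3.

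Mouse blood, with 2 libraries per group, had the highest median of the mouse tissues at heat and no calls. The median log2 change was 0.78, against 0.02 over all genes tested, and for all 8 subunits both heat libraries lay above both control libraries, which held for 20.5% of all genes. No gene at all passed edgeR's test (background 0), while 2355 of 15869 genes and all 8 subunits had an unadjusted p under 0.05, and DESeq2 called all 8. Their sum was 369 and 325 CPM in the heat libraries, against 191 and 207 CPM in the control libraries. As a share of all counts, before scaling, they took 0.0280 and 0.0455% in the heat libraries. The control libraries had 0.0206 and 0.0286%, so the groups overlapped. The separation in blood therefore depends on the TMM scaling.

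Cct7 had 71.3 and 42.1 CPM in the heat libraries, against 28.4 and 24.7 CPM in the control libraries, with a log2 value of 1.09 (SE 0.25). Cct3 had 40.2 and 27.8 CPM in the heat libraries, against 16.4 and 16.6 CPM in the control libraries, with a log2 value of 1.04 (SE 0.19). In both genes heat 1 was far above heat 2. Cct6a had close replicates, with 40.6 and 37.6 CPM in the heat libraries, against 19.0 and 19.8 CPM in the control libraries. Its log2 value was 1.01 (SE 0.11, edgeR adjusted p = 0.08). Without heat 1 edgeR called 1 subunit, without heat 2 it called 4, and with no filter on low counts 5.

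Against heat, 6 subunits fell in blood at recovery (background 2.70% of genes called lower), all but Cct7 and Cct8, and the median was -0.86. For all 8 both recovery libraries lay below both heat libraries, which held for 26.4% of all genes. Cct6a had 15.1 and 16.4 CPM in the recovery libraries, a log2 difference from heat of -1.31 (SE 0.11, edgeR adjusted p = 0.027). Cct4 had 23.7 and 23.9 CPM in the recovery libraries, against 52.6 and 52.5 CPM in the heat libraries, a log2 difference of -1.14 (SE 0.12, edgeR adjusted p = 0.027). The replicates of Cct4 nearly coincided within each group. The count of 6 was 0 without control 1, without control 3, without recovery 1 or without recovery 2, and 7 without heat 2. Against control none passed in blood at recovery (background 0), 2 had an unadjusted p under 0.05, and DESeq2 called none. Neutrophil markers summed to 638 to 769 CPM in the heat libraries, against 364 to 399 CPM in the control libraries, and to 194 to 287 CPM in the recovery libraries. Those of B cells summed to 313 to 340 CPM in the heat libraries, against 422 to 518 CPM in the control libraries. At recovery B cell markers summed to 529 to 539 CPM. Against heat, 2 of 6 neutrophil markers fell, where 2.70% of all genes were called lower. The 5 B cell markers were all positive there, with a median log2 value of 0.71. Of the 6 T and NK cell markers 4 were positive, with a median of 0.20. Erythroid markers summed over 6 genes to 368639 to 902778 CPM in the heat libraries, against 398737 to 570758 CPM in the control libraries. At recovery the erythroid markers summed to 768113 to 913722 CPM. All 6 were positive at recovery over control, with a median log2 value of 0.87, and none was called. None of these markers was at 0 throughout a group, and their part in the CCT values was not tested.

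Whether the mouse tissues differed in the response was tested directly. For the heat change in muscle minus that in lung, edgeR called no subunit (background 0.0443%), none had an unadjusted p under 0.05, and DESeq2 called none. The differences ran from -0.27 for Cct7 (95% interval -0.84 to 0.31) to 0.11 for Cct6a (95% interval -0.35 to 0.57). For blood minus lung none was called (background 0.0575%), none had an unadjusted p under 0.05, DESeq2 called none, and the differences ran from -0.08 to 0.38. For the recovery change in muscle minus lung none was called (background 0.0398%), 2 had an unadjusted p under 0.05, DESeq2 called none, and all 8 differences were positive. Cct6a had the largest, 0.63 (95% interval 0.17 to 1.09). Without muscle recovery 1, 1 subunit was called.

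Partners and clients of the complex were read from the same fits in the mouse, the lists having been chosen with earlier results known. In lung at heat none of the 6 prefoldin genes passed the test, with a median log2 change of -0.03. None of the 3 phosducin-like and thioredoxin-like cofactors tested passed, with a median of -0.06. The same held for the 14 tubulin genes (median -0.03), the 6 actin genes (-0.10), the 6 WD-repeat clients (0.02) and the 5 tubulin folding cofactors (-0.15). Nearest came a pair of client genes: Tubb2a stood at 0.47 and Tubb2b at 0.46 on the log2 scale, and reads of these near-identical tubulins may be split uncertainly. Of the 8 heat response genes 5 rose in lung at heat, with a median of 3.34, among them Hspa8 by 1.66 and Hsp90aa1, a cytosolic HSP90, by 2.26.

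At recovery against heat in lung, Tubb2a fell by 0.91 and Tubb2b fell by 1.09 on the log2 scale, 2 of 14 tubulin genes (background 5.84% called lower). Tbce, a tubulin folding cofactor, rose by 0.41, 1 of 5 in its list, whose median was 0.06. No prefoldin, cofactor, actin or WD-repeat gene passed there. Of the 2 related genes that are not among the 8 members, Cct8l1 fell by 2.58 and Cct6b, a testis form of the zeta subunit, did not pass. In muscle and blood no gene of these partner and client lists passed at heat or recovery. Few genes of any kind passed there: 0.293% were called higher in muscle at heat, and none of 15869 passed in blood at heat. With so few calls, lists this short would hold none in most cases, so this does not set the partners apart from the subunits. Prefoldin genes in muscle at heat had a median of 0.38, with none of 6 called. This was the highest prefoldin median among the comparisons of conditions within a mouse tissue. The median of the CCT subunits there was 0.47.

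The mouse genes whose profile was most like the mean of the 8 subunits were sought among 6677 genes over all 24 mouse libraries, by the root mean square difference of centred log2 CPM. The 5 nearest were Ipo7, an import receptor of the nuclear pore (0.106), Hspa4, an HSP110-family chaperone (0.113), Flcn, folliculin (0.114), Mlxip, a transcription factor (0.122) and Ppid, an HSP90-associated cyclophilin (0.126). The subunits themselves lay between 0.067 for Cct5 and 0.210 for Cct7, and the median of all other genes was 0.377. Cct2 (0.127), Cct3 (0.138) and Cct7 were thus farther from the mean of the subunits than these 5 genes, although each is part of that mean. In the bat, over 27 libraries, the subunits spread more widely, from 0.121 for TCP1 to 0.334 for CCT7, with a median of 0.558 for other genes.

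The bat subunits gave no calls in any comparison of conditions by edgeR. In bat lung at heat the median log2 change was 0.10, against -0.03 over all genes tested, and no gene passed (background 0). Of the 8 subunits 1 had an unadjusted p under 0.05, as had 1662 of 19149 genes, and DESeq2 called none. The median was 0.16 without control 3, and leaving out other libraries moved it between -0.0047 without heat 2 and 0.22 without heat 1. The sum over the 8 was 870, 1203 and 1117 CPM in the heat libraries, against 979, 934 and 1002 CPM in the control libraries, and the groups overlapped.

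CCT4 had 116, 178 and 170 CPM in the heat libraries, against 144, 127 and 197 CPM in the control libraries, a log2 value of -0.01 (95% interval -0.45 to 0.44). CCT7 had 101, 147 and 125 CPM in the heat libraries, against 116, 124 and 51.1 CPM in the control libraries, a log2 value of 0.35 (95% interval -0.28 to 0.99). CCT5 had 109, 116 and 130 CPM in the heat libraries, against 99.0, 101 and 54.5 CPM in the control libraries, a log2 value of 0.48 (SE 0.21). Control 3 was the library with low CCT5 and CCT7, while its CCT2 was the highest of the 3, with 208 CPM against 173 and 148 CPM in control 1 and 2.

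At recovery the bat lung values lay lower. The sum over the 8 was 627, 619 and 647 CPM in the recovery libraries, tight and below every heat and control library. Against control the median log2 change was -0.61, no subunit passed edgeR's test (background 0.0470%), 7 had an unadjusted p under 0.05, and DESeq2 called 6, all but CCT5 and CCT7. For 6 subunits every recovery library lay below every control library, which held for 10.6% of all genes. CCT4 had 83.5, 77.6 and 83.3 CPM in the recovery libraries, with a log2 value against control of -0.93 (SE 0.20, edgeR adjusted p = 0.156). CCT6A had 87.2, 79.2 and 82.9 CPM in the recovery libraries, against 140, 137 and 145 CPM in the control libraries, with a log2 value of -0.76 (SE 0.14, edgeR adjusted p = 0.114). The CCT6A groups were tight and wide apart. CCT7 was the exception, with 88.8, 94.0 and 97.4 CPM in the recovery libraries and a log2 value of -0.06 (SE 0.28). Without control 3 edgeR called 1 subunit, CCT5.

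Against heat the bat lung median at recovery was -0.76. No subunit passed edgeR's test (background 0.125%), 7 had an unadjusted p under 0.05, DESeq2 called 7, and all 8 had every recovery library below every heat library, which held for 12.4% of all genes. CCT2 had 102, 92.2 and 100 CPM in the recovery libraries, against 146, 225 and 204 CPM in the heat libraries, with a log2 value of -0.96 (SE 0.18, edgeR adjusted p = 0.118). Without control 3 edgeR called 4 subunits, and without heat 1 it called 2.

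In bat muscle at heat the median log2 change was 0.20 and the values had both signs. Without heat 3 the median was 0.05. No subunit passed edgeR's test (background 0.0376%), none had an unadjusted p under 0.05, and DESeq2 called none. CCT3 had 53.4, 75.2 and 102 CPM in the heat libraries, against 84.9, 108 and 70.2 CPM in the control libraries. CCT7 had 101, 126 and 143 CPM in the heat libraries, against 114, 127 and 123 CPM in the control libraries. For both genes the groups overlapped, with log2 values of -0.19 (95% interval -0.70 to 0.32) for CCT3 and 0.02 (95% interval -0.30 to 0.35) for CCT7. Heat 3 was the highest library for 7 of the 8 subunits and heat 1 the lowest for all 8, with sums of 722, 893 and 1030 CPM in heat 1, 2 and 3, against 773, 873 and 781 CPM in the control libraries.

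At recovery the bat muscle median against control was -0.22. No subunit passed edgeR's test (background 2.67%), 2 had an unadjusted p under 0.05 and DESeq2 called none. For 6 subunits every recovery library lay below every control library, which held for 12.7% of all genes. CCT5 had 54.5, 60.7 and 47.8 CPM in the recovery libraries, against 67.0, 82.1 and 76.4 CPM in the control libraries, a log2 value of -0.47 (SE 0.16, edgeR adjusted p = 0.126). CCT3 stood at -0.59 (SE 0.23). Against heat none passed (background 0.00627%), 5 had an unadjusted p under 0.05, DESeq2 called none, and the median was -0.38. For the heat change in bat muscle minus that in lung none was called (background 0), 1 had an unadjusted p under 0.05 and DESeq2 called none. For the recovery change none was called (background 0.559%), none had an unadjusted p under 0.05, and DESeq2 called none.

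Bat blood had the widest spread between libraries. The biological coefficient of variation of its fit was 0.536, against 0.161 to 0.343 in the fits of the other tissues of both species, so the lack of calls in bat blood does not show that the subunits were unchanged. At heat the median log2 change was 0.77, which became 0.37 without heat 2 and 1.01 without heat 1. No gene passed edgeR's test (background 0), 1 subunit and 351 of 16038 genes had an unadjusted p under 0.05, and DESeq2 called no subunit. The sum over the 8 was 541, 1231 and 857 CPM in the heat libraries, against 564, 451 and 585 CPM in the control libraries. Heat 1 lay within the control range, and heat 2 and 3 above it.

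CCT4 had 104, 243 and 231 CPM in the heat libraries, against 86.5, 67.3 and 97.9 CPM in the control libraries. Its log2 value was 1.20 (SE 0.46, 95% interval 0.19 to 2.22, unadjusted p = 0.025 in edgeR). CCT5 had 44.7, 76.8 and 57.2 CPM in the heat libraries, against 54.7, 65.4 and 67.1 CPM in the control libraries, a log2 value of -0.07 (SE 0.32). The share of CCT4 among the counts of the 8 subunits was 22.0 ± 4.29% at heat and 15.7 ± 0.957% in control (SD, n = 3 each). That of CCT5 was 7.06 ± 1.07% at heat and 11.9 ± 2.43% in control, and that of CCT7 7.10 ± 0.832% at heat and 9.81 ± 0.0875% in control (SD, n = 3 each). The subunit whose mean share rose most at heat was thus CCT4 in bat blood and Cct7 in mouse lung, a difference that was not tested. TCP1, CCT2, CCT6A and CCT8 in bat blood had smaller rises of the mean share.

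At recovery the bat blood subunits were low. Their sum was 318, 203 and 340 CPM in the recovery libraries. Against control the median was -0.85, none passed edgeR's test (background 0), 3 had an unadjusted p under 0.05, DESeq2 called none, and 7 subunits had every recovery library below every control library, which held for 6.19% of all genes. Against heat the median was -1.55, none passed (background 0), all 8 had an unadjusted p under 0.05, DESeq2 called 2, CCT2 and CCT4, and all 8 had every recovery library below every heat library, which held for 8.52% of all genes. CCT4 had 43.7, 17.2 and 43.5 CPM in the recovery libraries and a log2 difference from heat of -2.47 (SE 0.48, edgeR adjusted p = 0.287). Without recovery 2 the medians were -0.63 against control and -1.30 against heat.

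Recovery 2 set itself apart by subunit. It had the lowest CCT8, 12.2 CPM against 49.9 and 51.1 CPM in recovery 1 and 3, and the lowest CCT2, 31.6 CPM against 63.3 and 62.9 CPM. Its CCT3 was the highest, 33.4 CPM against 19.7 and 25.2 CPM, as was its CCT7, 38.4 CPM against 30.8 and 32.9 CPM. Its CCT5, 36.6 CPM, lay between the 30.8 and 41.2 CPM of recovery 1 and 3. In bat lung control 3, TCP1, CCT5 and CCT7 were the lowest of the 3 control libraries, and CCT2, CCT3, CCT4, CCT6A and CCT8 the highest.

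**Figure D4:**
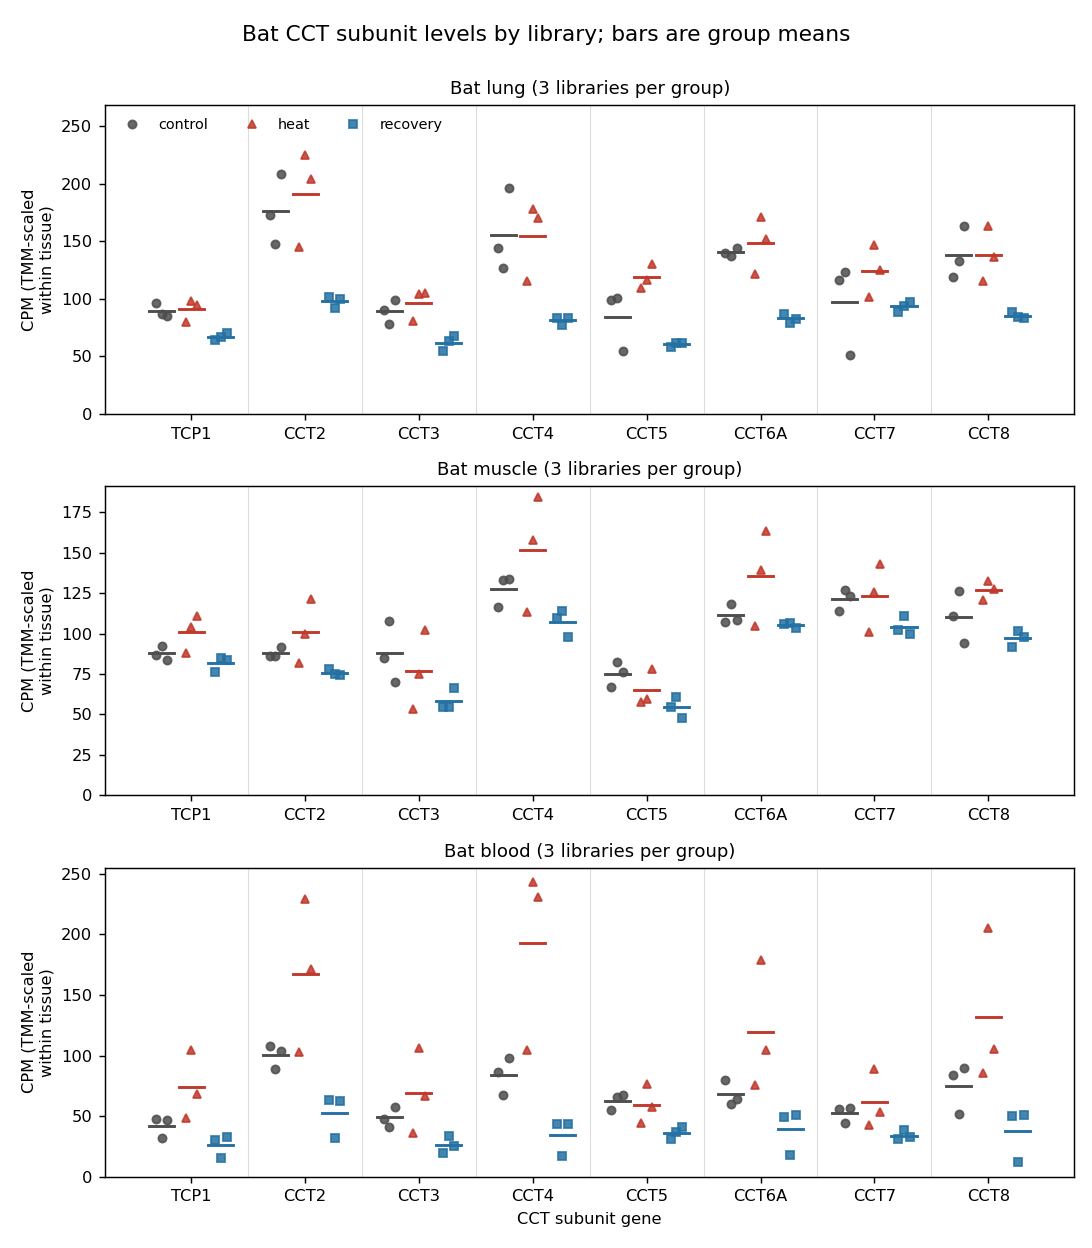
CPM of each CCT subunit (y axis, TMM-scaled within tissue) in every bat library of lung, muscle and blood (panels) at control, heat and recovery (colours); bars are group means. Recovery libraries lie lowest for most subunits in lung and blood, and heat libraries overlap control libraries for most subunits in lung and all 8 in muscle.

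The responses of the species were compared in a joint fit over the 8 subunits, whose bat rows were matched by fixed identifiers, and the other genes that could be matched between the tables by name or identifier. The 8 were among 84 genes tested in lung, 53 in muscle and 65 in blood. Spread and adjustment rested on these few matched genes, so adjusted p-values of the joint fits are not comparable with those of the other fits. A bat minus mouse difference below 0 means that the bat value changed less upward, or more downward. In muscle at heat 2 subunits were lower in the bat (background 7.55% of the 53 genes called lower, 4 genes with these 2 among them). Cct7 differed by -0.82 (SE 0.20, 95% interval -1.25 to -0.39, edgeR adjusted p = 0.0154) and Cct3 by -0.91 (SE 0.28, 95% interval -1.50 to -0.31, edgeR adjusted p = 0.0471). The log2 change from control was 0.02 in the bat and 0.85 in the mouse for Cct7, and -0.19 in the bat and 0.72 in the mouse for Cct3. All 8 differences were negative, with a median of -0.33, against -0.14 over the genes tested. Cct7 was called in each of 18 fits that left out a library, and Cct3 in 7 of them. With a replicate block Cct7 alone was called.

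In lung at heat the 8 differences were also all negative, with a median of -0.47, against -0.18 over the 84 genes, but none passed edgeR's test (background 2.38% in either direction) and 4 had an unadjusted p under 0.05. Cct7 stood at -0.78 (95% interval -1.53 to -0.04), Cct4 at -0.71 (95% interval -1.22 to -0.20) and Cct5 at -0.05 (95% interval -0.59 to 0.49). Without mouse lung heat 2, 3 were called, and without bat lung control 2 or control 3, 1. In blood at heat none passed (background 0), none had an unadjusted p under 0.05, and the differences had both signs, with a median of -0.02, which became -0.47 without bat blood heat 2 and 0.21 without bat blood heat 1.

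At recovery the differences were negative for all 8 subunits in each tissue. None passed edgeR's test in lung (background 0), muscle (background 0) or blood (background 0), and 5, 5 and 0 had an unadjusted p under 0.05 in these tissues. The medians were -0.48 in lung, -0.49 in muscle and -0.82 in blood, against -0.10, -0.36 and -0.03 over the genes tested. Cct2 in lung had the smallest p, with a difference of -0.83 (SE 0.22, edgeR adjusted p = 0.111). The median in muscle was -0.64 without mouse muscle recovery 1, where 2 subunits were called, and that in blood was -0.57 without bat blood recovery 2. DESeq2 was not run on these joint fits.

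**Figure D5:**
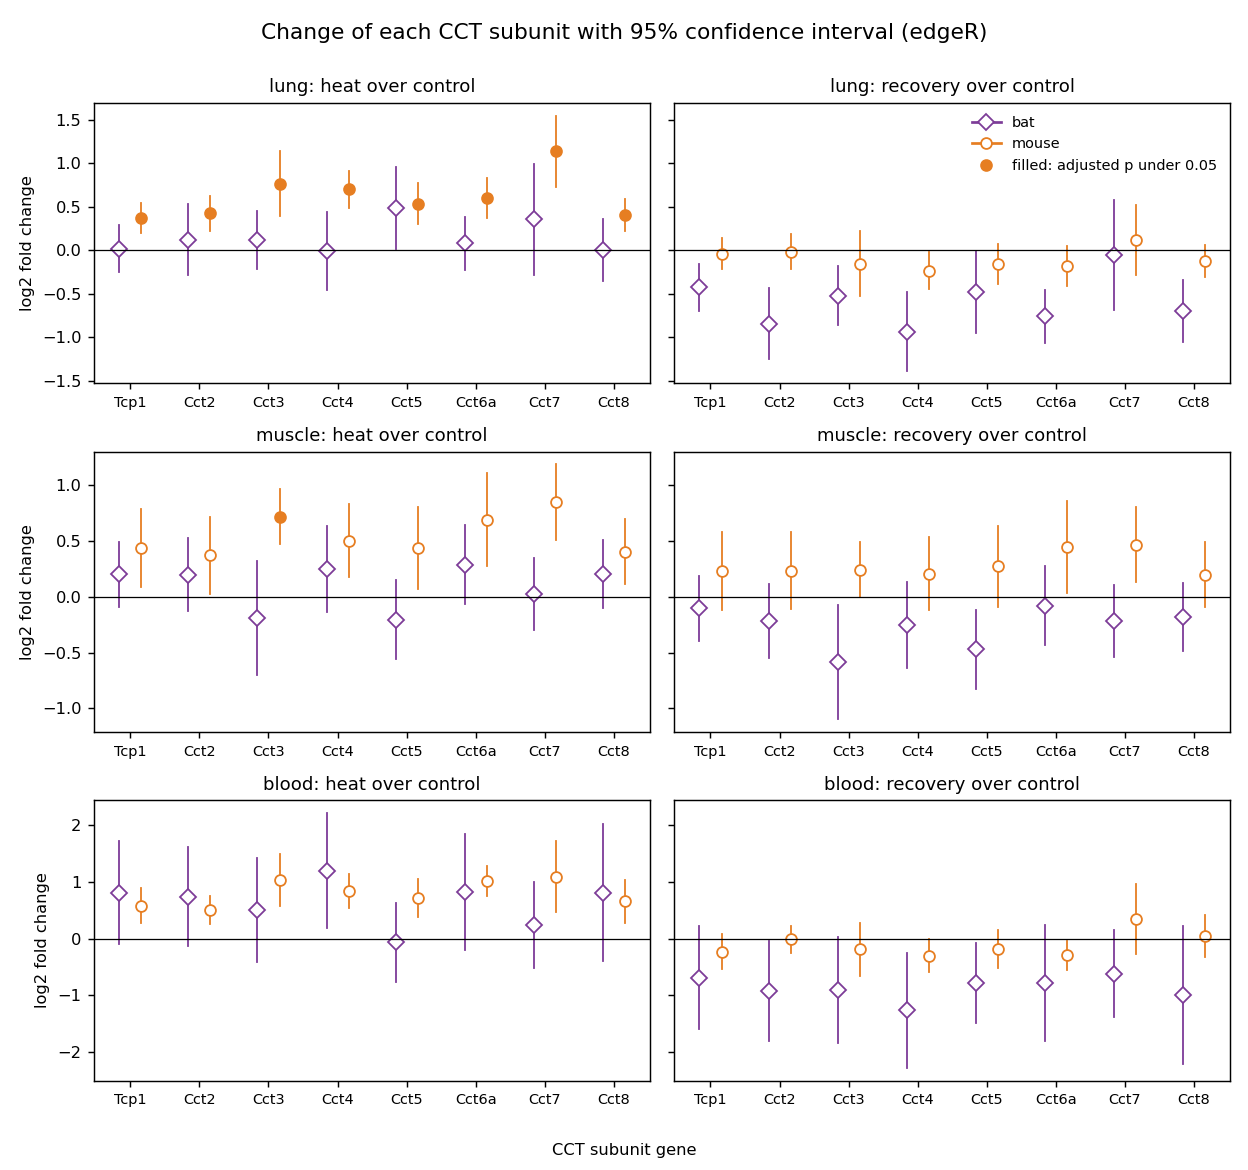
Log2 change of each CCT subunit over control (y axis) at heat (left) and recovery (right) in lung, muscle and blood (rows), bat left of mouse for each gene; lines are 95% confidence intervals and filled points have an edgeR adjusted p under 0.05. All mouse lung points at heat are filled and above 0, 1 mouse muscle point is filled, and no bat point is.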

How the data were processed

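The submitters' processing notes name STAR 2.7, an aligner, featureCounts, a read counter, and the mouse build GRCm39. The bat assembly and strand setting are not given in the sources used here. The authors deposited raw counts per gene, 1 table per species. Counts were analysed with edgeR 4.0.16 (R 4.3.3): TMM scaling, filterByExpr (minimum count 10, minimum total 15), robust quasi-likelihood test and Benjamini-Hochberg adjustment over all genes tested, with calls at 0.05. One fit per species and tissue held its 3 conditions, and a fit over all tissues of a species gave tissue contrasts. Transcripts came from GENCODE M21, an older mouse build, so no coordinates are given. Promoters and proteins were not analysed here.

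The members and lists were chosen with earlier results of these data known. The genes named are the 8 subunits in every comparison, up to 4 called genes per list, and the 5 nearest genes. Alternatives were DESeq2 1.42.0, RLE size factors, no filter, a replicate block and leaving out each library. Scripts were tested on simulated counts. The labels tie no replicate number to an animal. Same-numbered bat libraries deviated from their group means together, with every correlation over 0.1, in muscle control with heat (0.168 to 0.202), blood control with recovery (0.242 to 0.388), lung with muscle at heat (0.117 to 0.169) and at recovery (0.168 to 0.204), and lung with blood at heat (0.134 to 0.179). For lung with muscle in control animals they were 0.089 to 0.187. No other pair of groups with 3 shared numbers met this in either species. The main fits hold no block. No 2 libraries of a group agreed within sampling noise.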

Additional observations from a re-analysis of the deposited data

Results flagged for a closer look

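The heat response in muscle differed between the species for 2 subunits by a test of the difference itself, adjusted over only the 53 genes matched between the tables. The bat minus mouse difference was -0.82 on the log2 scale for Cct7 (edgeR adjusted p = 0.0154) and -0.91 for Cct3 (edgeR adjusted p = 0.0471), with each gene's libraries in bat heat and control overlapping and in mouse heat and control not overlapping. Without the filter on low counts, or with the replicate number as a block, 1 of the 2 was called. No group had 4 or more libraries, so single libraries were not tested for standing apart within a group.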

How the results depend on the processing

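Across the alternatives no called subunit reversed its direction. In mouse lung the counts at heat over control (8) and recovery over heat (8) were the same under DESeq2, RLE size factors, no filter and the replicate block. The count moved by over 1.5 times elsewhere: in mouse muscle at heat over control (1) it was 6 under DESeq2, 2 with no filter and 0 with the block. In mouse muscle at recovery over heat (0) it was 1 under DESeq2. In mouse blood at heat over control (0) it was 8 under DESeq2 and 5 with no filter, and at recovery over heat (6) it was 0 with the replicate block. For mouse control blood over lung (3) RLE and no filter gave 1 each, and DESeq2 and the block gave 2. In bat lung (0) DESeq2 called 6 at recovery over control and 7 at recovery over heat, and in bat blood (0) it called 2 at recovery over heat. For bat minus mouse in muscle at heat (2) no filter and the replicate block gave 1 each.

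Leaving out 1 library in turn gave these ranges of counts. In the mouse they were 1 to 8 (lung heat over control), 5 to 8 (lung recovery over heat), 0 to 6 (muscle heat over control), 0 to 4 (blood heat over control), 0 to 7 (blood recovery over heat), 0 to 3 (control blood over lung), 4 to 8 (control blood over muscle) and 0 to 1 (recovery change in muscle minus lung). In the bat they were 0 to 1 (lung recovery over control), 0 to 4 (lung recovery over heat), 0 to 1 (control blood over lung) and 7 to 8 (control blood over muscle). For bat minus mouse they were 0 to 3 (lung heat), 0 to 1 (lung recovery), 1 to 3 (muscle heat) and 0 to 2 (muscle recovery). Where a mouse blood group was left with 1 library, it was assumed to vary like the other groups. The cause of these moves was not tested.

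The replicate block left the count of called subunits the same in every bat comparison, including those where the numbers paired libraries. No mouse groups with 3 shared numbers had every correlation over 0.1. Deviations of same-numbered libraries correlated between -0.415 and 0.554 in mouse muscle and -0.158 and 0.129 in mouse lung. Between mouse lung and muscle of the same condition the 9 same-numbered pairs were all positive, from 0.00065 to 0.259. Whether mouse tissues were paired more weakly was not tested. The 5 nearest mouse genes were the same with a prior count of 0.5 in place of 2. With 2 or 3 libraries a group, the number of libraries limits the precision of these values.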
